A study of Danio rerio with 4 samples.

Results

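The claudins, the membrane proteins that form the strands of the tight junction, were examined in zebrafish larvae exposed to bisphenol C. The members were chosen by name: 33 of the 27472 genes in the deposited table had a name starting with cldn, and the 3 whose names start with cldnd were left out, namely the claudin-domain genes cldnd1a and cldnd1b and, by the same letters, claudin d (cldnd). That left 30 claudin genes. The rule reads names and no measured value, although the family itself was picked with earlier results of these data known.

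RNA came from whole larvae of the AB strain of zebrafish (Danio rerio), taken 72 hours post fertilization (hpf). The exposed group (BPC) had been kept in 4 µM bisphenol C, a bisphenol, from 4 hpf, and the other group (DMSO) had been kept in dimethyl sulfoxide, the solvent control, over the same time. Each group had 2 libraries, numbered 1 and 3. All larvae were raised on the same light and dark cycle, and neither group carried a transgene or mutation named in the labels. The number of larvae per library and the clutches they came from are not stated, so p-values measure only how far these 4 libraries differ, and part of that difference may be technical.

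Claudins span the membrane of epithelial and endothelial cells and pair with claudins of the neighbouring cell to close, or selectively open, the path between the cells. Some seal that path, as claudin 1 does in mammalian skin, and others form pores for small ions or water, as claudin 2 and claudin 15 do in the mammalian kidney and gut. Teleosts carry many more claudin genes than mammals, with letter-named groups such as claudin b, e and i that are made in fish skin. Which claudins a tissue makes sets how leaky it is, so whole-larva claudin transcripts are spread over skin, gut, liver, kidney, vessels, ear and myelin.

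Values are FPKM, that is, sequenced fragments divided by transcript length and by the mapped fragments of the library, which are per length and so allow levels of different claudins to be set side by side. The deposited values carry no read totals, so the depth of each library is unknown. A gene was tested where at least 2 libraries reached 0.5 FPKM, which held for 24 of the 30 claudins and 19873 genes in all. The test was limma on log2(FPKM + 1), and a gene was called at a Benjamini-Hochberg adjusted p under 0.05 over all tested genes. The added 1 shrinks the log2 change of genes with low values. FPKM totals were 422245 and 425611 in BPC and 355583 and 355364 in DMSO. The median log2 change of all tested genes was -0.12. It moved by 0.14 with quantile normalization, by 0.15 with median centring and by -0.25 with TPM scaling (each library scaled to the same sum).

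In BPC larvae 3 of the 4 claudins listed under skin rose, while 1 of the 3 gut claudins and the liver claudin fell. Of the 24 tested claudins, 8 rose and 4 fell. Of all tested genes, 7.06% rose and 17.5% fell, 24.6% in either direction. The 8 that rose were cldn1, cldni, cldne, cldnb, cldn7b, cldn11a, cldn5b and cldn5a, and the 4 that fell were cldn15la, cldn7a, cldn15lb and cldn2. Of the 4 that fell, cldn15lb and cldn2 were under 0.5 FPKM in BPC 1, so they passed the filter through DMSO. Among all tested genes, 778 of the 3480 that fell were likewise under 0.5 FPKM in at least 1 BPC library. With TPM scaling the split was 6 higher and 6 lower, with quantile normalization or median centring it was 10 and 4. Without DMSO 1 the counts were 2 higher and 2 lower, and without DMSO 3 they were 2 and 3; none of the 12 called claudins turned its direction under any of the 13 alternatives run.

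**Figure D1:**
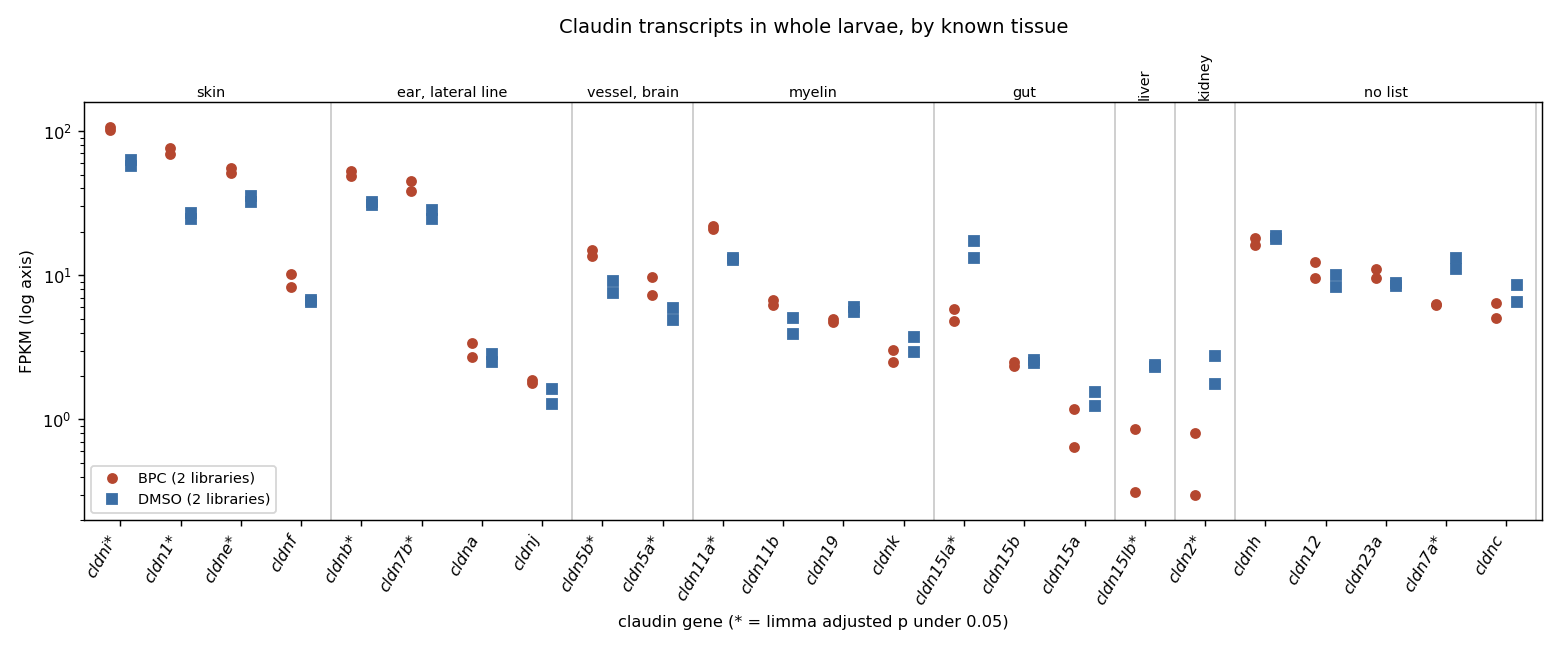
FPKM of the 24 tested claudins on a log axis, with the 2 BPC libraries as circles left of the 2 DMSO libraries as squares. Claudins are grouped by the tissue they were listed under. The 4 skin claudins lie higher in both BPC libraries, and the gut claudin cldn15la, the liver claudin cldn15lb and cldn2 lie lower.

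The median log2 change of the 24 tested claudins was 0.22, beside -0.12 over all tested genes. With TPM scaling the claudin median was -0.003, beside -0.36 over all tested genes. Of the tested claudins 14 had a log2 change above 0 (58.3%, beside 37.7% of all tested genes). Both BPC values lay above both DMSO values for 12 of the 24 claudins, which held for 23.0% of all tested genes, and below both for 7, which held for 45.1%.

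**Figure D2:**
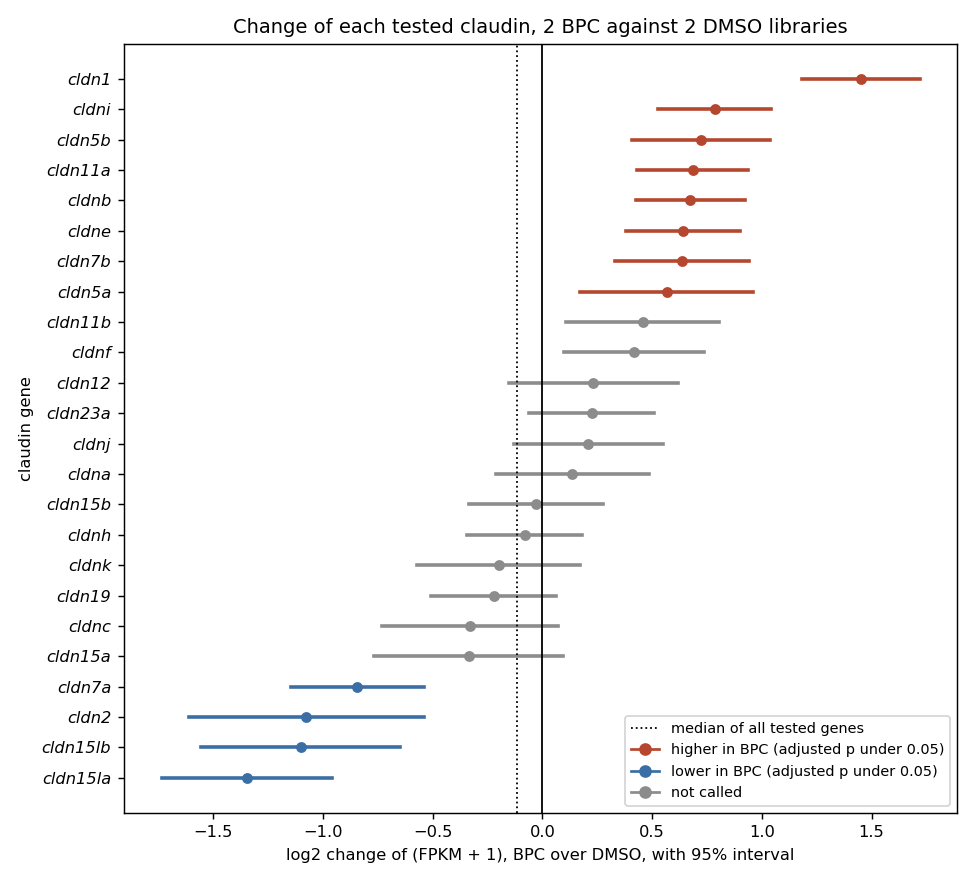
Log2 change of (FPKM + 1), BPC over DMSO, for the 24 tested claudins, with 95% intervals from limma. The changes run from 1.45 for cldn1 to -1.35 for cldn15la, and the dotted line marks the median of all tested genes at -0.12.

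**Figure D3:**
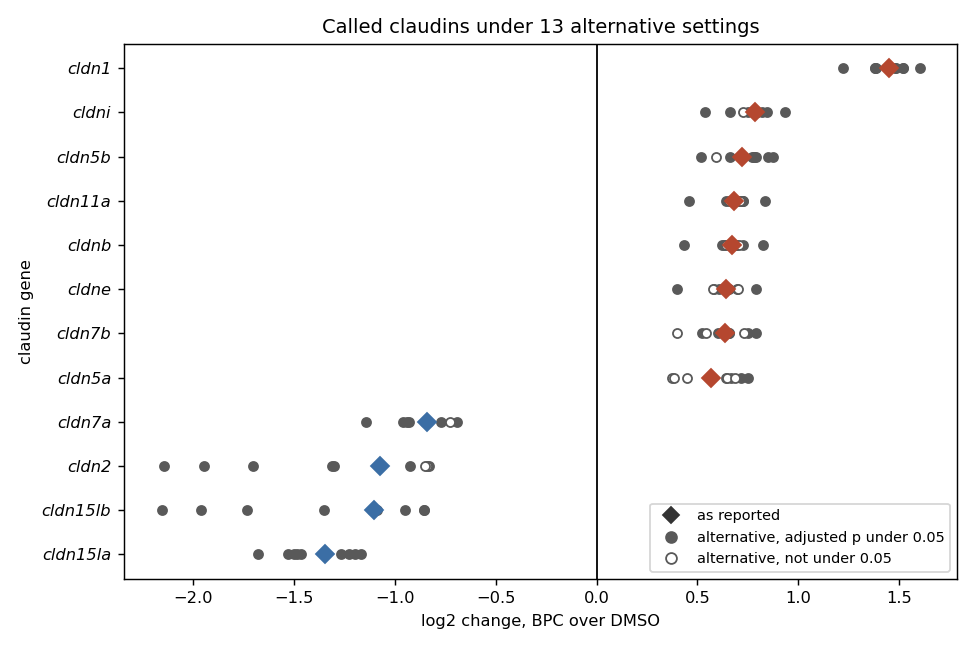
Log2 change of the 12 called claudins as reported (diamonds) and under 13 alternatives (circles, open where the adjusted p was not under 0.05). No circle crosses 0, and cldn1 and cldn15la have no open circle.

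Summed over the 30 members, claudin transcripts reached 471 and 442 FPKM in BPC and 309 and 310 FPKM in DMSO. This was 0.112 and 0.104% of all FPKM in BPC and 0.0869 and 0.0872% in DMSO. The 5 highest claudins, cldni, cldn1, cldne, cldnb and cldn7b, made up 70.6 and 70.7% of the claudin sum in BPC and 56.4 and 58.4% in DMSO. The first place was held by cldni in both groups. By group mean, claudin 1 had rank 2 in BPC and rank 5 in DMSO, although in DMSO its values overlapped those of cldn7b at rank 4. In BPC the values of cldne and cldnb, at ranks 3 and 4, also overlapped. The gut claudin cldn15la had rank 16 in BPC and rank 7 in DMSO. Its DMSO values overlapped those of cldn11a at rank 8, and its BPC values overlapped those of cldnc and cldn19 at ranks 15 and 17.

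**Figure D4:**
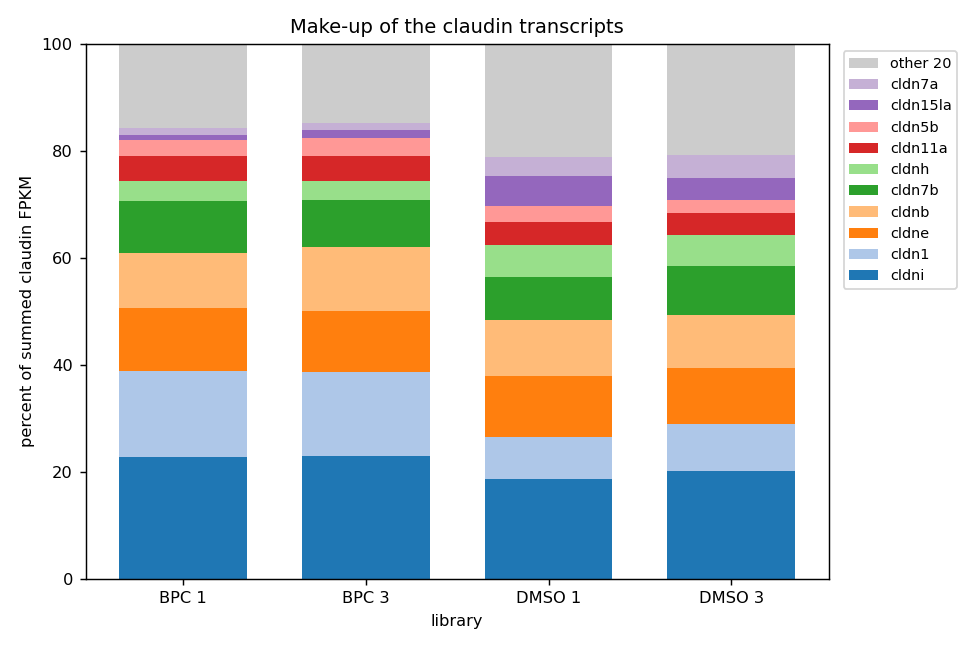
Percent of the summed claudin FPKM taken by each of 10 claudins and by the other 20 together, in the 2 BPC and then the 2 DMSO libraries. These are not the 10 highest: the called cldn7a (mean over all libraries 9.14 FPKM) is drawn, while cldn12 (10.0) and cldn23a (9.45) are among the other 20. The share of cldn1 was 16.1 and 15.6% in BPC and 7.97 and 8.77% in DMSO, and that of cldn15la was 1.02 and 1.32% in BPC and 5.56 and 4.25% in DMSO.

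Skin claudins made up a larger share of the claudin sum than any other tissue list, and all 4 had a positive log2 change, of which 3 were called. Claudin 1, the sealing claudin of mammalian epidermis, had 76.0 and 69.0 FPKM in BPC and 24.6 and 27.2 FPKM in DMSO. Both BPC values were above both DMSO values, a 2.80-fold difference in the means (log2 change 1.45, SE 0.11, adjusted p = 0.00166). This call held under all 13 alternatives, with log2 changes from 1.22 to 1.602. Claudin i, a letter-named fish claudin of the epidermis, had 107 and 102 FPKM in BPC and 57.6 and 62.6 FPKM in DMSO. It was 1.73-fold higher in BPC with no overlap (log2 change 0.79, SE 0.11, adjusted p = 0.00597). Claudin e, known from the enveloping layer and the surface epidermis of zebrafish, had 55.3 and 50.9 FPKM in BPC and 35.2 and 32.2 FPKM in DMSO. It was 1.57-fold higher with no overlap (log2 change 0.64, SE 0.11, adjusted p = 0.0109). Claudin f had 10.1 and 8.24 FPKM in BPC and 6.48 and 6.71 FPKM in DMSO and missed the threshold (log2 change 0.42, adjusted p = 0.0636), although its groups did not overlap. It was called with quantile normalization (0.0358), median centring (0.0283) and without BPC 3 (0.0192). Without DMSO 1 the cldni (adjusted p = 0.0706) and cldne (0.0687) calls were lost, and cldne also without DMSO 3 (0.103).

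The 4 skin claudins together took 52.7 and 52.0% of the claudin sum in BPC and 40.1 and 41.6% in DMSO. This share leaves out cldnb, which is also made in skin but was listed under ear and lateral line. Beside them, of 23 tested markers of the epidermis 12 rose and 1 fell (median log2 change 0.60). That is 56.5% called, beside 24.6% of all tested genes. The summed level of the 24 in the file was 22703 and 18362 FPKM in BPC and 9444 and 9850 FPKM in DMSO. The keratin gene krt4 had 9494 and 7575 FPKM in BPC and 3755 and 3806 FPKM in DMSO, and krt5 had 1290 and 1339 FPKM in BPC and 814 and 808 FPKM in DMSO. The keratin gene krt93 was listed at 0 in all 4 libraries. Most of that sum came from 3 keratins, krt4, cyt1 and cyt1l, which made up 83.3 and 80.9% of it in BPC and 75.2 and 76.6% in DMSO. Their log2 changes ran from 1.13 for cyt1 to 1.32 for cyt1l. Per 1000 FPKM of the epidermis markers, cldn1 had 3.35 and 3.76 FPKM in BPC and 2.61 and 2.76 in DMSO. On the same scale cldni was lower in BPC, with 4.71 and 5.53 in BPC and 6.09 and 6.36 in DMSO. So was cldne, with 2.43 and 2.77 in BPC and 3.73 and 3.27 in DMSO. Markers that were not called include the basal collagen gene col17a1a, with 81.8 and 86.8 FPKM in BPC and 83.9 and 84.7 FPKM in DMSO, and the epithelial cadherin gene cdh1, with 18.9 and 18.7 FPKM in BPC and 16.5 and 17.7 FPKM in DMSO. The part of these markers in the claudin changes was not tested. In whole larvae more cells of a type and more RNA per cell cannot be told apart.

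Of 4 claudins listed under ear and lateral line, 2 rose, while 7.06% of all tested genes rose. The list is not exclusive to these organs. Claudin b, which marks the lateral line primordium in zebrafish and is also made in ear, skin and pronephros, had 49.0 and 52.6 FPKM in BPC and 32.2 and 30.7 FPKM in DMSO. It was 1.61-fold higher with no overlap (log2 change 0.67, SE 0.10, adjusted p = 0.00793). Claudin 7b, an epithelial claudin, had 45.1 and 38.5 FPKM in BPC and 24.7 and 28.3 FPKM in DMSO, 1.58-fold higher with no overlap (log2 change 0.64, SE 0.13, adjusted p = 0.0169). Claudin j, which zebrafish need to form otoliths, was low in both groups, at 1.78 and 1.87 FPKM in BPC and 1.27 and 1.63 FPKM in DMSO, and claudin a had 3.37 and 2.71 FPKM in BPC and 2.85 and 2.49 FPKM in DMSO. Neither was called (adjusted p = 0.313 for cldnj and 0.519 for cldna), with 95% intervals of the log2 change from -0.13 to 0.55 and from -0.21 to 0.49. Of 17 tested ear and lateral line markers 1 rose and 3 fell (median log2 change -0.29). The share called was 23.5%, close to the 24.6% of all tested genes. The summed level of the 18 in the file was 437 and 430 FPKM in BPC and 466 and 506 FPKM in DMSO. Most of it came from sparc, pvalb8 and stm, with 70.9 and 70.6% in BPC and 73.0 and 73.7% in DMSO. The largest, sparc, had 245 and 230 FPKM in BPC and 220 and 248 FPKM in DMSO and was not called. Both pvalb8 and stm were among the 3 that fell (log2 changes -0.70 and -0.94). The inner ear matrix genes otog (1.196 and 1.29 FPKM in BPC, 1.497 and 1.62 in DMSO) and otogl (0.179 and 0.389 in BPC, 0.693 and 0.634 in DMSO) were not called. Without DMSO 1 or DMSO 3 the cldnb (adjusted p = 0.0666 and 0.0756) and cldn7b (0.139 and 0.0601) calls were lost, and cldn7b also with TPM scaling (0.0523).

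Of the claudin 7 copies, cldn7b rose and cldn7a fell. Claudin 7a had 6.21 and 6.27 FPKM in BPC and 10.97 and 13.1 FPKM in DMSO. It was 1.93-fold lower in BPC with no overlap (log2 change -0.84, SE 0.13, adjusted p = 0.00751), a call lost without DMSO 3 (0.0578). The ratio of cldn7b to cldn7a was 7.27 and 6.13 in the BPC libraries and 2.25 and 2.16 in the DMSO libraries. The pair was set in ratio after its opposite calls were seen, so the separation of the ratios follows from that choice and is a description. The 95% intervals of the log2 changes ran from 0.33 to 0.94 for cldn7b and from -1.14 to -0.54 for cldn7a.

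The gut claudin with the highest level and the liver claudin fell. Claudin 15-like a, found in zebrafish gut epithelium and used there as a reporter of the gut tube, had 4.802 and 5.86 FPKM in BPC and 17.2 and 13.2 FPKM in DMSO. It was 2.85-fold lower with no overlap (log2 change -1.35, SE 0.16, adjusted p = 0.00429), and the call held under all 13 alternatives, with log2 changes from -1.68 to -1.17. Claudin 15-like b, which zebrafish hepatocytes make and which is needed for normal bile canaliculi and ducts, had 0.315 and 0.854 FPKM in BPC and 2.38 and 2.32 FPKM in DMSO. It was 4.02-fold lower with no overlap (log2 change -1.10, SE 0.19, adjusted p = 0.0112). Because its level is low, the pseudocount sets the size of that change: it was -1.96 with a pseudocount of 0.1 and -2.16 with 0.01. The cldn15lb call was lost without DMSO 1 (adjusted p = 0.0525). The BPC values of cldn15lb and of cldn2 were each under 0.5 FPKM in BPC 1, so both genes passed the filter through DMSO.

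The other claudin 15 genes did not pass the threshold. Claudin 15b had 2.35 and 2.51 FPKM in BPC and 2.56 and 2.44 FPKM in DMSO (log2 change -0.03, 95% interval from -0.34 to 0.28, adjusted p = 0.887). Its sign turned with quantile normalization (0.18), with median centring (0.12) and without BPC 1 (0.0051). Claudin 15a had 0.638 and 1.18 FPKM in BPC and 1.54 and 1.24 FPKM in DMSO (log2 change -0.34, 95% interval from -0.77 to 0.09, adjusted p = 0.21). The ratio of cldn15la to cldn15b was 2.04 and 2.33 in BPC and 6.71 and 5.39 in DMSO, a pair also chosen after its values were seen.

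Beside the gut claudins, of 14 tested enterocyte markers 9 fell and 1 rose (median log2 change -0.66). That is 71.4% called, beside 24.6% of all tested genes. Of the 9 that fell, 8 were under 0.5 FPKM in at least 1 BPC library and so passed the filter through DMSO, which left fabp2 as the one that did not. The brush border gene vil1 had 0.201 and 0.593 FPKM in BPC and 7.98 and 6.68 FPKM in DMSO, and fabp2, an intestinal fatty acid binding protein, had 34.6 and 32.1 FPKM in BPC and 50.3 and 56.4 FPKM in DMSO. The summed level of the 15 in the file was higher in BPC, 3178 and 3045 FPKM against 2329 and 2302 FPKM in DMSO. Most of that sum was the apolipoprotein apoa1a, named here after its values were seen, with 2797 and 2701 FPKM in BPC and 1911 and 1955 FPKM in DMSO. The endocytic receptor gene lrp2b was listed at 0 in BPC 1 and was below the filter. Of 15 tested hepatocyte markers 8 fell, 1 of them through DMSO in the same way, and the other 7 were not called (median log2 change -0.44). That is 53.3% called, beside 24.6% of all tested genes. The summed level of the hepatocyte markers was 782 and 869 FPKM in BPC and 1371 and 1238 FPKM in DMSO. The liver fatty acid binding protein fabp10a had 1.64 and 2.96 FPKM in BPC and 55.3 and 36.2 FPKM in DMSO, and the transferrin gene tfa had 140 and 161 FPKM in BPC and 261 and 231 FPKM in DMSO. Per 1000 FPKM of the hepatocyte markers cldn15lb had 0.403 and 0.982 FPKM in BPC and 1.74 and 1.87 in DMSO. Most of that sum came from rbp4, tfa and serpina1, with 59.7 and 61.1% of it in BPC and 66.5 and 66.9% in DMSO. Their log2 changes were -1.07, -0.71 and -0.27, whereas that of fabp10a was -3.82, so this scale depends on which markers carry the sum. The part of these markers in the claudin changes was not tested.

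Of 15 claudins listed for the mammalian kidney 8 were in the file and 2 were tested. Of these 1 fell and 1 rose, while 17.5% of all tested genes fell and 7.06% rose. The one that rose is cldn8.2, which stands in the file under a clone name and so is not a member, with 15.2 and 13.9 FPKM in BPC and 9.84 and 9.78 FPKM in DMSO (log2 change 0.52, adjusted p = 0.0194). The one that fell is claudin 2, which was under 0.5 FPKM in BPC 1 and so passed the filter through DMSO. Claudin 2, a pore-forming claudin of the proximal tubule and gut, had 0.298 and 0.8004 FPKM in BPC and 2.76 and 1.76 FPKM in DMSO. It was 4.11-fold lower with no overlap (log2 change -1.08, SE 0.22, adjusted p = 0.0187), and -1.95 or -2.15 with a pseudocount of 0.1 or 0.01. Without DMSO 1 (adjusted p = 0.0967), without BPC 1 (0.0514) or when low genes were kept (0.0626) it was not called. Of 14 tested kidney tubule markers 7 fell, 2 of them having passed the filter through DMSO, and 1 rose (median log2 change -0.47). That is 57.1% called, beside 24.6% of all tested genes. The summed level of the tubule markers was 56.5 and 55.1 FPKM in BPC and 102 and 96.2 FPKM in DMSO. The tubule cadherin cdh17 had 10.4 and 6.88 FPKM in BPC and 19.0 and 15.6 FPKM in DMSO, and the phosphate transporter gene slc20a1a, not called, had 2.00 and 1.65 in BPC and 2.16 and 2.20 in DMSO. Their part in the cldn2 change was not tested. The ion-pore claudins of the claudin 10 group, cldn10a, cldn10b and cldn10l2, and the claudin named cldn17 were all below the filter, with no library above 0.588 FPKM. In RefSeq the gene named cldn17 here is cldn8.3, which stands next to cldn8.2. In BPC 1, cldn10l2 and cldn17 were listed at 0, which may be a failed estimate, so no fold is given for them.

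Skin also holds ionocytes, the ion-transporting cells among the keratinocytes. Of 16 tested ionocyte markers 9 fell, of which rhcgb passed the filter through DMSO, and the other 7 were not called (median log2 change -0.49). That is 56.2% called, beside 24.6% of all tested genes. The summed level of the ionocyte markers was 138 and 142 FPKM in BPC and 231 and 227 FPKM in DMSO. The calcium channel gene trpv6 had 1.34 and 1.24 FPKM in BPC and 4.71 and 4.78 FPKM in DMSO, and the sodium-chloride cotransporter gene slc12a10.2 had 1.28 and 1.26 in BPC and 2.53 and 2.00 in DMSO. The ammonia transporter gene rhcgb was listed at 0 in BPC 1. Their part in the claudin changes was not tested.

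Both claudin 5 copies rose. Claudin 5b, a claudin of zebrafish blood vessels, had 13.7 and 14.9 FPKM in BPC and 9.12 and 7.47 FPKM in DMSO. It was 1.72-fold higher with no overlap (log2 change 0.72, SE 0.13, adjusted p = 0.0129), a call lost without DMSO 3 (0.0941). Claudin 5a, which lines the zebrafish brain ventricles and takes part in the blood-brain barrier, had 9.75 and 7.34 FPKM in BPC and 4.89 and 5.95 FPKM in DMSO. It was 1.58-fold higher with no overlap but close to the threshold (log2 change 0.57, SE 0.16, adjusted p = 0.0498). That call was lost under 8 of the 13 alternatives, namely both other pseudocounts, no filter, TPM scaling, the replicate block (adjusted p = 0.0528) and leaving out BPC 1 (0.118), DMSO 1 (0.261) or DMSO 3 (0.0969). The ratio of cldn5b to cldn5a was 1.401 and 2.03 in BPC and 1.86 and 1.26 in DMSO, with overlap. Beside the claudin 5 genes, of 18 tested endothelial markers 0 were called by limma, the only tool run, while 24.6% of all tested genes were. Of these markers 1 had an unadjusted p under 0.05 (median log2 change 0.02). Their summed level was 78.6 and 72.5 FPKM in BPC and 69.0 and 76.0 FPKM in DMSO. The vessel cadherin cdh5 had 8.61 and 7.25 FPKM in BPC and 6.76 and 7.01 FPKM in DMSO, and the growth factor receptor gene kdrl had 7.38 and 5.52 FPKM in BPC and 6.12 and 6.15 FPKM in DMSO. The endothelial adhesion genes esama and esamb, which are not in this marker list, fell and are given with the junction partners.

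Of the 4 myelin claudins 1 rose and the other 3 were not called, a share of 25%, close to the 24.6% of all tested genes. Claudin 11a, whose mammalian counterpart builds the tight junctions of central myelin, had 22.1 and 20.8 FPKM in BPC and 13.3 and 12.7 FPKM in DMSO. It was 1.65-fold higher with no overlap (log2 change 0.68, SE 0.10, adjusted p = 0.00789), but not called without DMSO 1 (0.063) or DMSO 3 (0.0681). Claudin 11b had 6.78 and 6.22 FPKM in BPC and 5.07 and 3.91 FPKM in DMSO and missed the threshold (log2 change 0.46, adjusted p = 0.0645), although it was called with quantile normalization (0.0395) and median centring (0.0331). Claudin k, the claudin of myelinating glia in zebrafish, had 2.50 and 3.05 FPKM in BPC and 2.94 and 3.73 FPKM in DMSO. Its groups overlapped (log2 change -0.20, 95% interval from -0.57 to 0.17, adjusted p = 0.378). Claudin 19, a claudin of mammalian Schwann cells and kidney, had 4.71 and 4.94 FPKM in BPC and 5.9997 and 5.5985 FPKM in DMSO, without overlap and without a call (log2 change -0.22, adjusted p = 0.21); with TPM scaling it was called lower (0.0287). Of 11 tested myelinating glia markers 6 fell, 2 of them (mbpa among these) having passed the filter through DMSO, and 2 rose (median log2 change -0.53). That is 72.7% called, beside 24.6% of all tested genes. The summed level of the glia markers was 55.6 and 53.9 FPKM in BPC and 62.7 and 64.5 FPKM in DMSO. The myelin basic protein gene mbpa had 0.280 and 1.12 FPKM in BPC and 7.41 and 6.32 FPKM in DMSO, while mbpb, its other copy, had 18.6 and 19.9 in BPC and 22.5 and 23.1 in DMSO. Most of the summed level came from mbpb, olig2 and sox10, with 62.1 and 68.5% of it in BPC and 56.3 and 57.4% in DMSO. Of these olig2 rose (log2 change 0.73, limma adjusted p = 0.0158), while mbpb and sox10 were not called.

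Of the 7 claudins placed in no tissue list 5 were tested and 1, cldn7a, was called lower. That compares with 24.6% called among all tested genes, and 17.5% called lower. Claudin h, a letter-named fish claudin at rank 6 in DMSO, had 18.2 and 16.3 FPKM in BPC and 18.7 and 17.9 FPKM in DMSO, with overlap (log2 change -0.08, 95% interval from -0.34 to 0.18, adjusted p = 0.616) and a change of sign with median centring (0.07). Claudin c had 6.46 and 5.06 FPKM in BPC and 8.49 and 6.52 FPKM in DMSO (adjusted p = 0.192; 0.0422 with TPM scaling). Claudin 12 had 12.4 and 9.50 FPKM in BPC and 8.25 and 10.0 FPKM in DMSO, and claudin 23a had 10.99 and 9.53 FPKM in BPC and 8.45 and 8.80 FPKM in DMSO; neither was called (adjusted p = 0.324 and 0.21). Claudin 23b and claudin g were below the filter, with no library above 0.553 FPKM.

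Several claudin genes sit in tandem runs, so neighbours could be compared. By the order of protein-coding genes in RefSeq (assembly GRCz12tu, used for order only; 29 of the 30 members matched), cldnj, cldne, cldnf and cldna stand next to each other in a run of 4 with no other coding gene between. All 4 had log2 changes above 0, at 0.21, 0.64, 0.42 and 0.14 in that order, and 1, cldne, was called. Over all tested genes 37.7% had a log2 change above 0 and 24.6% were called. With TPM scaling cldna was below 0 (-0.06). A second run of 7 claudin genes holds cldnh, cldnc and cldnb side by side. Their log2 changes were -0.08, -0.33 and 0.67 in that order, and of these cldnb alone was called. Further along the run, under clone names, cldn29 next to cldnb was not called (0.12) and cldn30 rose (0.58). The ratio of cldnb to cldnh was 2.69 and 3.22 in BPC and 1.73 and 1.72 in DMSO, again for a pair chosen after its values were seen. Tandem copies can share reads, and the sources used here do not say how the authors' counting split them.

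In the authors' deposited table, 10 claudins were higher and 4 lower at a q-value under 0.05, and all 12 claudins called by limma were among them. By the same measure 9.68% of all genes in the authors' deposited table were higher and 9.76% lower (19.4% in either direction). The further ones in the authors' deposited table were cldnf (q = 0.0091) and cldn11b (q = 0.0096). The authors' deposited table marks 4 claudins as significant, cldn1, cldn15la, cldn15lb and cldn2, beside 8.38% of all its genes, and no gene marked so has a log2 ratio smaller than 1 in size.

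Of 68 tested junction partners, a list that includes scaffolds, adhesion proteins and polarity proteins, 9 rose and 7 fell, with a median log2 change of 0.08. The share called was 23.5%, close to the 24.6% of all tested genes. The genes epcam, which rose, and cdh1 are also in the epidermis marker list. Without them 8 rose and 7 fell of 66 tested (median log2 change 0.07). With TPM scaling the split was 4 higher and 18 lower, with median centring it was 15 and 5 and with no filter 4 and 3. Without DMSO 1 the counts were 1 and 1, without DMSO 3 they were 2 and 3, without BPC 1 they were 5 and 6 and without BPC 3 they were 13 and 13.

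The strand proteins next to the claudins were the occludins. The occludin gene oclna had 20.4 and 19.5 FPKM in BPC and 12.2 and 11.5 FPKM in DMSO (log2 change 0.71, adjusted p = 0.00733), and oclnb had 16.2 and 12.4 FPKM in BPC and 9.08 and 8.94 FPKM in DMSO (log2 change 0.60, adjusted p = 0.0297). Both BPC values lay above both DMSO values for each. The genes of the 4 other proteins of the same MARVEL fold were not called. Of the 14 scaffolds that bind claudin tails or junctional actin (tjp, cingulin and magi genes) 0 were called by limma, and 3 had an unadjusted p under 0.05. Among all tested genes 24.6% were called. The partners were grouped by role after values were seen, so the counts per group are a description. The junctional adhesion genes jam2b (8.13 and 7.49 FPKM in BPC, 3.95 and 4.06 in DMSO, adjusted p = 0.0069) and jam2a (8.64 and 7.11 in BPC, 4.30 and 5.07 in DMSO, adjusted p = 0.0236) rose, and the endothelial adhesion genes esama (2.33 and 2.82 in BPC, 5.41 and 4.73 in DMSO, adjusted p = 0.0133) and esamb (0.540 and 0.730 in BPC, 2.38 and 1.53 in DMSO, adjusted p = 0.0209) fell.

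Of 19 tested polarity genes, a group also drawn after values were seen, 1 rose and 3 fell. That is 21.1% called, beside the 24.6% of all tested genes. The crumbs gene crb2a had 3.48 and 3.196 FPKM in BPC and 1.83 and 1.67 FPKM in DMSO (adjusted p = 0.0165), whereas its copy crb2b had 0.552 and 0.824 FPKM in BPC and 2.18 and 2.32 FPKM in DMSO (adjusted p = 0.00786). The crumbs-binding scaffold gene mpp5b also fell (0.102 and 0.345 FPKM in BPC, 1.59 and 1.07 in DMSO, adjusted p = 0.0145), having passed the filter through DMSO. Among the other partners, the nectin gene nectin1a, under 0.5 FPKM in BPC 1 and so also passed through DMSO, fell (0.384 and 1.41 in BPC, 3.51 and 2.94 in DMSO, adjusted p = 0.0218). The angiomotin gene amotl2a rose (32.6 and 30.9 FPKM in BPC, 20.2 and 22.8 in DMSO, adjusted p = 0.0179). EpCAM, an epithelial adhesion protein that binds claudin 7 in mammals, had 162 and 188 FPKM in BPC and 94.3 and 46.1 FPKM in DMSO (log2 change 1.39, SE 0.31, adjusted p = 0.0228). Its groups did not overlap, but the DMSO libraries lay far apart.

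**Figure D5:**
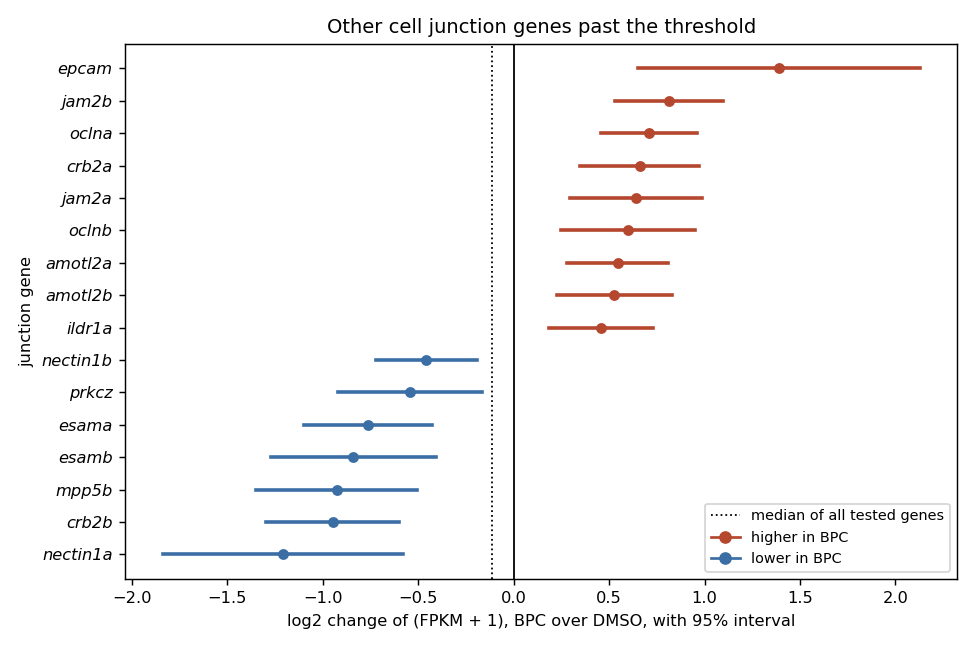
Log2 change of (FPKM + 1), BPC over DMSO, with 95% intervals, for the 16 junction partners past the threshold. The 9 that rose include both occludin genes and 2 jam2 genes, and the 7 that fell include crb2b, mpp5b and both esam genes.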

How the data were processed

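Polyadenylated RNA of whole larvae was made into paired-end libraries with a dUTP-marked second strand, per the labels' protocols. Tools named in the submitters' processing notes are StringTie 1.3.4d, HISAT2 2.0.4, cutadapt 1.9, edgeR and DESeq2, without saying what each did. The sources used here give neither the genome build nor whether strand was used in counting. The authors deposited FPKM values per gene and library, per the file headers, with the ratio of mean FPKM (BPC over DMSO), its log2, a p-value and a q-value. All FPKM columns were matched to samples by name. Low values showed no common step (the commonest ratio between 2 libraries held for 1.01% of 1588 low genes), so whole reads could not be recovered.

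From the FPKM values, limma 3.58.1 in R 4.3.3 was fitted with group as the only term on log2(FPKM + 1), with an intensity trend and no robust fit, to the 19873 genes for which 2 or more libraries reached 0.5 FPKM. The prior had 4.47 degrees of freedom. Adjusted p-values are Benjamini-Hochberg over all tested genes, with a threshold of 0.05, two-sided. The script was tested on simulated data. Members and lists were chosen with earlier results of these data known. Of 249 list symbols 229 were matched. Claudins were named where called, among the 10 highest, or in a tissue list at a mean of at least 1 FPKM, and the others are named too because they are members; of the junction partners up to 5 with the smallest p in each direction were named, and of each marker list the first 2. The genes oclnb, jam2a, apoa1a, cyt1, cyt1l, col17a1a, cdh1, krt93, rhcgb and lrp2b, the pairs of claudins set in ratio and the grouping of partners by role were chosen after values were seen. So were rbp4, serpina1, olig2, sox10, sparc, pvalb8 and stm, named because they carry much of a marker sum. Pathway tables of a single pair of libraries were not used.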

Additional observations from a re-analysis of the deposited data

How the results depend on the processing

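Of the 12 called claudins, 2 (cldn1 and cldn15la) kept their call under all 13 alternatives and 0 changed sign. The remaining 10 each lost the call under 1 to 8 of them, most often when a DMSO library was left out, which leaves 1 sample in that group, assumed to vary like the other group. Leaving out 1 library at a time gave 2 to 9 claudins higher and 2 to 4 lower, 329 to 2097 genes higher and 675 to 4146 lower, and 1 to 13 junction partners higher and 1 to 13 lower. With no filter 748 genes were higher and 2020 lower, and 4 and 3 junction partners. Quantile normalization gave 2111 genes lower. Median centring gave 2441 higher and 1997 lower, with 15 junction partners higher. TPM scaling gave 759 higher and 7286 lower, with 4 and 18 junction partners. The cause was not tested. Among claudins not called, the log2 change turned to 0.18 (quantile normalization) and 0.12 (median centring) for cldn15b, which over the libraries left out in turn lay between -0.063 and 0.0051, to 0.070 for cldnh (median centring), and to -0.0064 for cldn23a and -0.061 for cldna (both TPM scaling). With the replicate number as a block, 7 claudins were higher and 4 lower, 1333 genes higher and 3282 lower, and 8 and 8 junction partners; the cldn5a call was lost (adjusted p = 0.0528) and no other claudin call changed. Same-numbered libraries deviated from their group means with a correlation of 0.0081 across tested genes, so the numbers are not taken to pair the samples. Within groups, the correlation over tested genes was 0.972 for the BPC pair and 0.989 for the DMSO pair, so the BPC libraries were less alike. With a DMSO library left out, the BPC pair alone gives the within-group spread. The part of this difference in the lost calls was not tested.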

Other observations

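A further 11 claudin genes stood in the deposited table under other names and so were not among the 30 members. Of these 7 were tested, 3 rose and the other 4 were not called, while of all tested genes 7.06% rose. By their Ensembl identifiers and a table of symbols, zgc:110333 is cldn8.2, a claudin whose mammalian relatives act in the collecting duct, and it had 15.2 and 13.9 FPKM in BPC and 9.84 and 9.78 FPKM in DMSO, higher with no overlap (log2 change 0.52, SE 0.11, adjusted p = 0.0194). The gene zgc:136892 is cldn30, which stands in the same run of 7 claudin genes as cldnb, and it had 4.50 and 3.98 FPKM in BPC and 2.38 and 2.65 FPKM in DMSO (log2 change 0.58, adjusted p = 0.0254). The gene cldn26 had 2.17 and 2.53 FPKM in BPC and 0.816 and 0.891 FPKM in DMSO (log2 change 0.85, adjusted p = 0.00903). The run of 7 also holds zgc:112437 (cldn29), which was not called, at 2.84 and 3.31 FPKM in BPC and 2.41 and 3.09 FPKM in DMSO (adjusted p = 0.583). Of the other tested genes, none called, the one described as claudin 34a had 0.626 and 0.0710 FPKM in BPC and 0.879 and 0.809 FPKM in DMSO (log2 change -0.48, adjusted p = 0.141), cldn33b had 0.427 and 0.62 FPKM in BPC and 0.854 and 0.449 FPKM in DMSO (log2 change -0.11, adjusted p = 0.668), and cldn23l had 0.331 and 1.13 FPKM in BPC and 1.17 and 0.202 FPKM in DMSO (log2 change 0.06, adjusted p = 0.912). The other 4 genes were below the filter, and among them cldn10d had 0.0838 and 0.188 FPKM in BPC and 0.352 and 0.675 FPKM in DMSO.

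Of the genes left out by name, the claudin-domain genes lay on opposite sides of 0 without a call. The gene cldnd1b had 14.4 and 11.5 FPKM in BPC and 8.76 and 9.77 FPKM in DMSO (adjusted p = 0.0655), and cldnd1a had 1.79 and 3.93 FPKM in BPC and 5.58 and 5.42 FPKM in DMSO (adjusted p = 0.0644). Claudin d was below the filter, at 0.130 and 0.378 FPKM in BPC and 0.302 and 0.0713 FPKM in DMSO.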
